A study of Mus musculus with 6 samples.

Results

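The genes described here are 45 cytosolic and mitochondrial chaperones and their partners, taken by symbol from a table of 55335 mouse genes. They comprise 2 heat shock transcription factors, 11 Hsp70 and Hsp110 genes, 3 Hsp90 genes, 4 small heat shock proteins, 9 chaperonin subunits, 12 J-domain proteins and 4 cochaperones. Each symbol was found once, and 44 of the 45 had a mean of at least 1 FPKM (fragments per kilobase of transcript, scaled to library depth) in a group and entered the tests. Hspb1 did not. Total RNA was sequenced from 6 samples of C57BL/6 mouse cells labelled as GABAergic interneurons of embryonic day 14.5, kept in Neurobasal medium with B27. The AAV-scramble group (3 libraries) received an adeno-associated virus with a control hairpin and the AAV-shbrpf1 group (3 libraries) one with a hairpin named for Brpf1, which encodes a scaffold protein of histone acetyltransferase complexes, both for 12 hours. Every library therefore came from infected cells, and no uninfected cells were analysed here. The sources used here do not give the promoter that drives the hairpins. Nothing in the labels says that the libraries came from separate animals or cultures, so every p-value below rests on a spread between libraries that may be technical.

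Molecular chaperones bind unfolded or partly folded proteins. Hsp70 proteins bind and release short hydrophobic stretches in a cycle of ATP hydrolysis that J-domain proteins start and nucleotide exchange factors end. Hsp90 takes over partly folded clients such as kinases and steroid receptors, and the chaperonins enclose a single chain in a chamber. Many families hold a constitutive gene, expressed at all times, and an inducible paralog that the transcription factor Hsf1 switches on after heat or other proteotoxic stress by binding heat shock elements, repeats of the unit GAA and its complement TTC. Neurons are known for a high content of constitutive Hsp70 and Hsp90.

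The sequences of the classic pair of each kind show how close the paralogs are and where one of these elements lies. The first 60 coding bases of Hspa1a, Hspa1b and Hspa8, from the GENCODE M21 transcripts (GRCm38), are printed with capitals where Hspa8 differs from Hspa1a, because they bear on whether reads of these genes can be told apart.
Hspa1a: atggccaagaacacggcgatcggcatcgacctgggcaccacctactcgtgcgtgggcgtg
Hspa1b: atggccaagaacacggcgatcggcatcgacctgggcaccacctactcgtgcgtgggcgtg
Hspa8: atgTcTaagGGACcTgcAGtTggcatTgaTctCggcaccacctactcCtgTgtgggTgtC
Hspa1a and Hspa1b were identical here, and over 1926 aligned coding bases they differed at 8 (99.6% identical), with an unbroken identical run of 638 bases. Reads of either gene could thus be assigned to the other, and their separate values are uncertain. Hspa8 differed from Hspa1a at 17 of these 60 bases, and the coding sequences were 74.5% identical. Those of Hsp90aa1 and Hsp90ab1 were 76.3% identical, with no identical run longer than 33 bases.

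Promoters of 36 of the 45 genes were found in RefSeq (GRCm38.p6), as windows of 300 bases from 250 before to 50 after the annotated start. Hsp90ab1, Hspa13, Hspa9, Hsp90aa1, Dnajc5, Hspa8, Cct4, Cryab and Hsf1 were not among them. A heat shock element of 3 units, that is GAANNTTC followed directly by NNGAA, or TTCNNGAA followed by NNTTC (each the other's reverse complement, so both strands were covered), was present in 4 of the 36 (11.1%), against 0.662% of 27025 genes. An element of 2 units, GAANNTTC or TTCNNGAA, which lies within every element of 3 units, was present in 15 of 36 (41.7%), against 17.0% of all genes. Of the genes classed here as inducible 8 of 9 held it, all but Dnajb1. Of those classed as constitutive 1 of 9 did, Dnajb6. The element of 3 units did not separate the classes: 1 of 9 inducible genes (Hsph1) and 1 of 9 constitutive genes (Dnajb6) held it, 11.1% each. A gene was counted if any of its windows matched. Counted by window, 17 of 54 chaperone windows held an element of 2 units (31.5%), against 15.1% of all 32851. The stretches below hold the match in capitals and are chosen as the inducible Hsp70 pair, the mitochondrial chaperonin pair and members of 2 J-domain paralog pairs; Dnaja2, with no match in its window, is printed up to its start.
Hspa1a, chr17:34972233-34972280, minus strand: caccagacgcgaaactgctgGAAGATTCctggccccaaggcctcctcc
Hspa1b, chr17:34959315-34959362, minus strand: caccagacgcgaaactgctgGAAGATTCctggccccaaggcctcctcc
Hspd1, chr1:55088039-55088096, minus strand: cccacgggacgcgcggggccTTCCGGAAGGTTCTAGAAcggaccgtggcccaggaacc
Hspe1, chr1:55088039-55088096, plus strand: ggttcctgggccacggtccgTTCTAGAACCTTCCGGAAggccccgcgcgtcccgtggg
Dnajb6, chr5:29735832-29735884, plus strand: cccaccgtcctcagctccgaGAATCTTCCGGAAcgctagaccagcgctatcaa
Dnaja1, chr4:40722324-40722371, plus strand: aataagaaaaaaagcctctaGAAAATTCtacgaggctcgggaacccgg
Dnaja2, chr8:85555362-85555461, minus strand: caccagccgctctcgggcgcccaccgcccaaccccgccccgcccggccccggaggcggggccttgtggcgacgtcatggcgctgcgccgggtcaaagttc
The Hspa1a and Hspa1b stretches were the same, base for base. Hspd1 and Hspe1 are transcribed away from each other, and a window of each held the same stretch on opposite strands. A match describes these letters only, and no binding was measured.

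The libraries held an estimated 13.1 to 21.2 M fragments. Brpf1 itself was at 3.29, 5.45 and 4.84 FPKM in AAV-scramble libraries 1, 2 and 3 and at 3.13, 4.58 and 3.78 FPKM in AAV-shbrpf1 libraries 1, 2 and 3. It was lower with AAV-shbrpf1 in 3 of 3 pairs of equal number, but the groups overlapped, and the difference of -0.18 ± 0.26 (SE) on the log2(FPKM + 1) scale did not pass (limma, Benjamini-Hochberg adjusted p = 1). Brpf1 overlaps Gm15492 on the other strand, and whether strand was used in counting is not known here. Markers of GABAergic neurons (8 of 8 above the filter) summed to 609 to 925 FPKM in AAV-scramble and 637 to 750.4 FPKM in AAV-shbrpf1, with Gad1 at 94.1 to 177 FPKM, while 6 markers of glutamatergic neurons summed to at most 0.95 FPKM. Progenitor markers (269 to 833 and 242 to 874 FPKM), astrocyte markers (251.3 to 457 and 245 to 425 FPKM) and markers of the oligodendrocyte lineage (136 to 320 and 154 to 299 FPKM) were also present, so the RNA was not that of interneurons alone. In such bulk samples fewer cells of a type and less RNA per cell cannot be told apart.

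No chaperone passed the test between the viruses. Of 44 genes tested 0 passed an adjusted p of 0.05 (limma; over all 12792 genes 0, 0.0%), and 0 had an unadjusted p under 0.05 (all genes 23, 0.18%). The values of the 2 groups overlapped for each of the 44, whereas they did not overlap for 1.07% of all genes. AAV-shbrpf1 was the higher group for 18 and the lower for 26, and the median difference was -0.02, the same as over all genes (-0.02). The smallest unadjusted p among the 44 was 0.514, for Dnajb1. Libraries with the same replicate number deviated together from their group means (correlations of 0.87, 0.83 and 0.57), and with the number as a block 0 of the 44 again had an unadjusted p under 0.05, against 2.19% of all genes. Within the 3 pairs of equal number, 2 chaperones were higher with AAV-shbrpf1 in each pair (Hspb8 and Bag5; all genes 7.15%) and 4 lower (Hsp90ab1, Cct2, Cct8 and Dnajb1; all genes 11.3%).

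**Figure D1:**
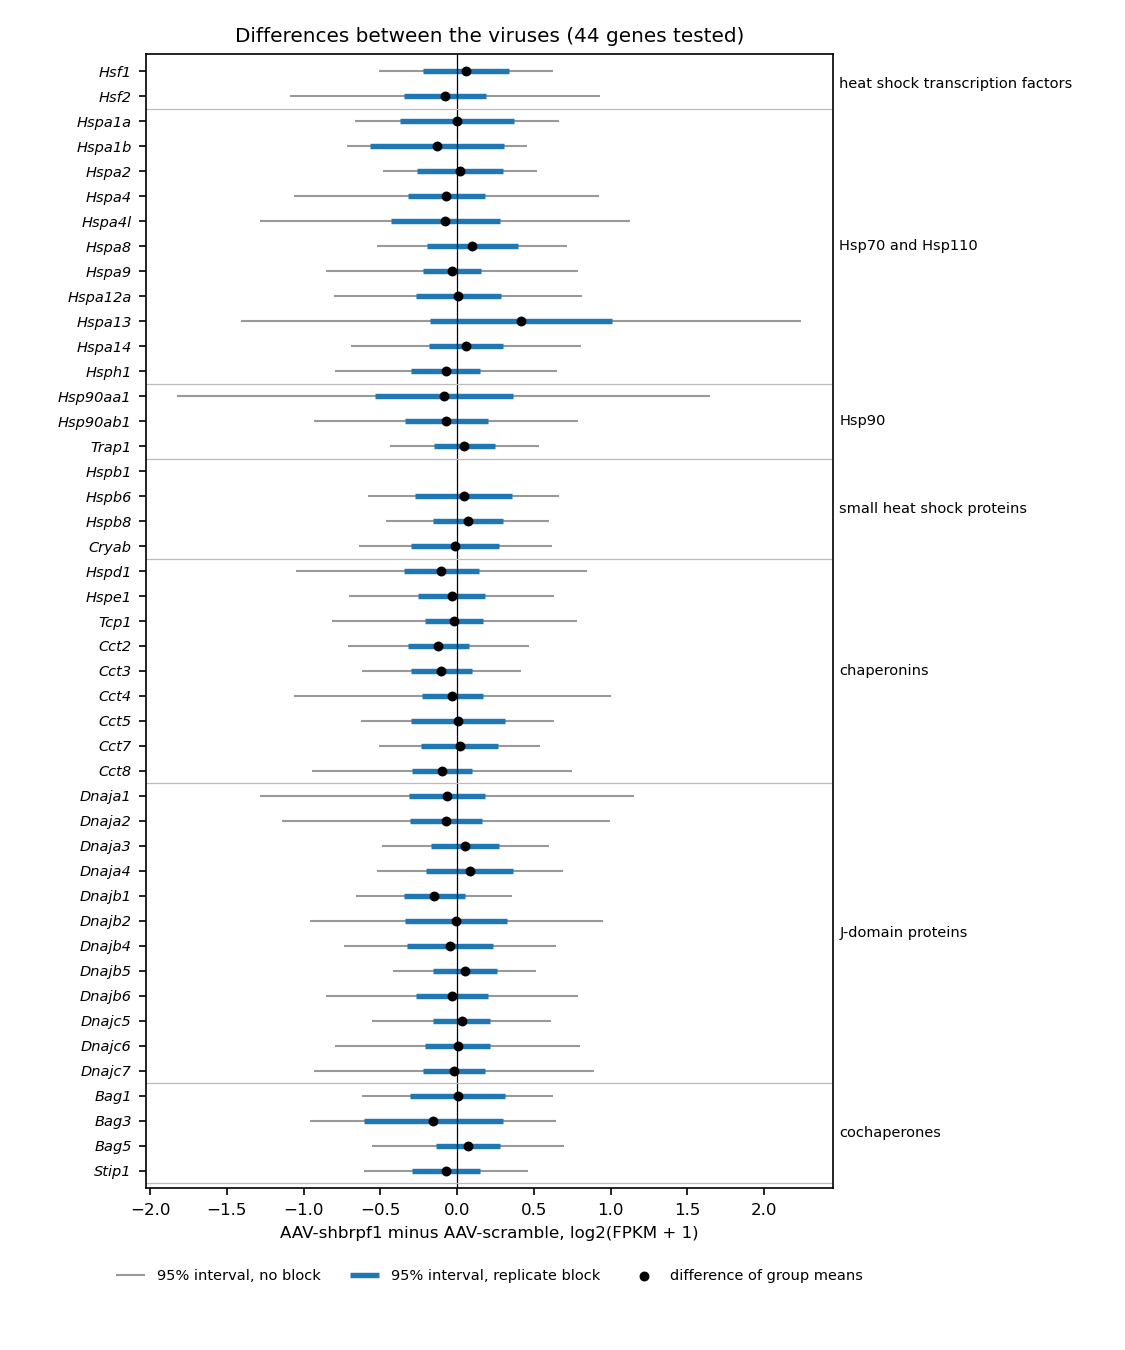
Difference of each of the 44 tested chaperones, AAV-shbrpf1 minus AAV-scramble, on the log2(FPKM + 1) scale, with 95% confidence intervals of the fits without and with the replicate number as a block. Every interval covers 0, and the intervals with the block are the narrower ones.

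These differences were measured with unequal precision. Without the block the 95% confidence interval reached 0.47 to 1.83 log2 units to each side (median 0.68) and lay within 1 unit of 0 for 35 of the 44. With the block it reached 0.19 to 0.59 to each side (median 0.25) and lay within 0.5 of 0 for 40. These widths are not a limit of detection, because a call required an adjusted p over all 12792 genes. In simulated data a 4-fold change was called for 58% of the changed genes without the block and for 92.5% with it. Changes larger than these widths could therefore be missed, and an interval that covers 0 does not show that the levels were equal.

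The heat shock transcription factors were expressed at low levels. Hsf1, the main activator of the heat shock response, was at 2.24, 2.19 and 1.35 FPKM in AAV-scramble and at 2.20, 2.25 and 1.63 FPKM in AAV-shbrpf1 (libraries 1, 2 and 3, the order used throughout). Hsf2, which can form mixed trimers with Hsf1, was at 5.01, 1.58 and 2.92 FPKM and at 4.62, 1.30 and 2.99 FPKM. Each AAV-shbrpf1 library of Hsf2 was near the AAV-scramble library of its own number and far from the others.

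Constitutive Hsp70 exceeded inducible Hsp70 in every library. Hspa8 (Hsc70, the constitutive cytosolic Hsp70; chr9:40800984-40810087) was at 275, 270.1 and 307 FPKM in AAV-scramble and at 348, 284 and 284 FPKM in AAV-shbrpf1. It stood at rank 75 of the 12792 tested genes by mean FPKM. Hspa1a (chr17:34969190-34972156), a stress-inducible Hsp70, was at 2.71, 5.20 and 2.66 FPKM and at 3.53, 3.85 and 2.82 FPKM. Hspa1b (chr17:34956436-34959238), its near-identical neighbour, was at 2.11, 3.63 and 2.12 FPKM and at 2.52, 2.08 and 2.16 FPKM. The highest value of both inducible genes was that of AAV-scramble library 2, and the values of the 2 groups overlapped. Since reads of the pair can be shared, their sum is the safer measure: Hspa8 was 57.0, 30.6 and 64.1 times that sum in AAV-scramble and 57.6, 47.8 and 57.1 times in AAV-shbrpf1. The log2 ratio of the sum to Hspa8 was -5.59 ± 0.57 and -5.75 ± 0.15 (SD, n = 3), and its difference of -0.16 did not pass (two-sided exact permutation test, p = 0.8; the smallest p that 3 against 3 allows is 0.1). Immediate early genes, which neuronal activity and handling induce, summed to 54.1, 74.9 and 38.8 FPKM in AAV-scramble and 44.1, 73.0 and 39.6 FPKM in AAV-shbrpf1, so they were highest in libraries numbered 2 with either virus. Hspa1a shared that order of highest library, whereas Hspa1b was highest in library 2 of AAV-scramble and lowest in library 2 of AAV-shbrpf1. The part of the immediate early genes in the Hspa1a and Hspa1b values was not tested. Hspa1a overlaps Gm20481 on the other strand, and small nucleolar RNA genes lie within Hspa8.

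The Hsp110 proteins act as nucleotide exchange factors for Hsp70. Hspa4, the more abundant one, was at 72.2, 32.5 and 40.6 FPKM in AAV-scramble and at 67.7, 27.0 and 44.9 FPKM in AAV-shbrpf1. Inducible Hsph1 (Hsp105) was at 18.02, 12.5 and 21.2 FPKM and at 15.3, 11.9 and 22.1 FPKM. Both were lowest in libraries numbered 2, but Hspa4 was highest in those numbered 1 and Hsph1 in those numbered 3, so that Hspa4 exceeded Hsph1 4.01, 2.61 and 1.92 times in AAV-scramble and 4.42, 2.26 and 2.04 times in AAV-shbrpf1. The log2 ratio of Hsph1 to Hspa4 differed by -0.01 between the viruses (exact permutation p = 1).

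Among the other Hsp70 genes Hspa13, which encodes a microsome-associated Hsp70-like ATPase, had the largest ratio of highest to lowest library of the 44. It was at 12.3, 0.75 and 7.01 FPKM in AAV-scramble and at 11.7, 2.84 and 8.13 FPKM in AAV-shbrpf1, and its difference of 0.42 ± 0.78 (SE) had an interval from -1.41 to 2.24. With the block the interval was -0.18 to 1.008, which also covers 0. Hspa9 (mortalin), the Hsp70 of the mitochondrial matrix, was at 40.8 to 81.9 FPKM, while Hspa4l, Hspa12a, Hspa14 and Hspa2 lay between 1.82 and 10.4 FPKM in every library.

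Hsp90 was the most abundant chaperone family, and its paralogs moved apart between libraries. Constitutive Hsp90ab1 (Hsp90 beta; chr17:45567775-45573271) was at 550.3, 906 and 646 FPKM in AAV-scramble and at 530.1, 893 and 587 FPKM in AAV-shbrpf1. Inducible Hsp90aa1 (Hsp90 alpha; chr12:110690605-110702728) was at 256, 65.8 and 74.9 FPKM and at 254, 43.3 and 95.4 FPKM. Libraries numbered 1 had the most Hsp90aa1 and the least Hsp90ab1, and those numbered 2 the reverse, with either virus. The excess of Hsp90ab1 was thus 2.15, 13.8 and 8.63 fold in AAV-scramble and 2.09, 20.6 and 6.15 fold in AAV-shbrpf1. The log2 ratio of Hsp90aa1 to Hsp90ab1 was -2.67 ± 1.39 and -2.68 ± 1.65 (SD, n = 3; exact permutation p = 1). Its means over the 3 numbers spanned 2.99 log2 units, whereas 2 libraries of the same number differed by at most 0.58. Trap1, the mitochondrial Hsp90, stayed between 29.0 and 33.1 FPKM in all 6 libraries.

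**Figure D2:**
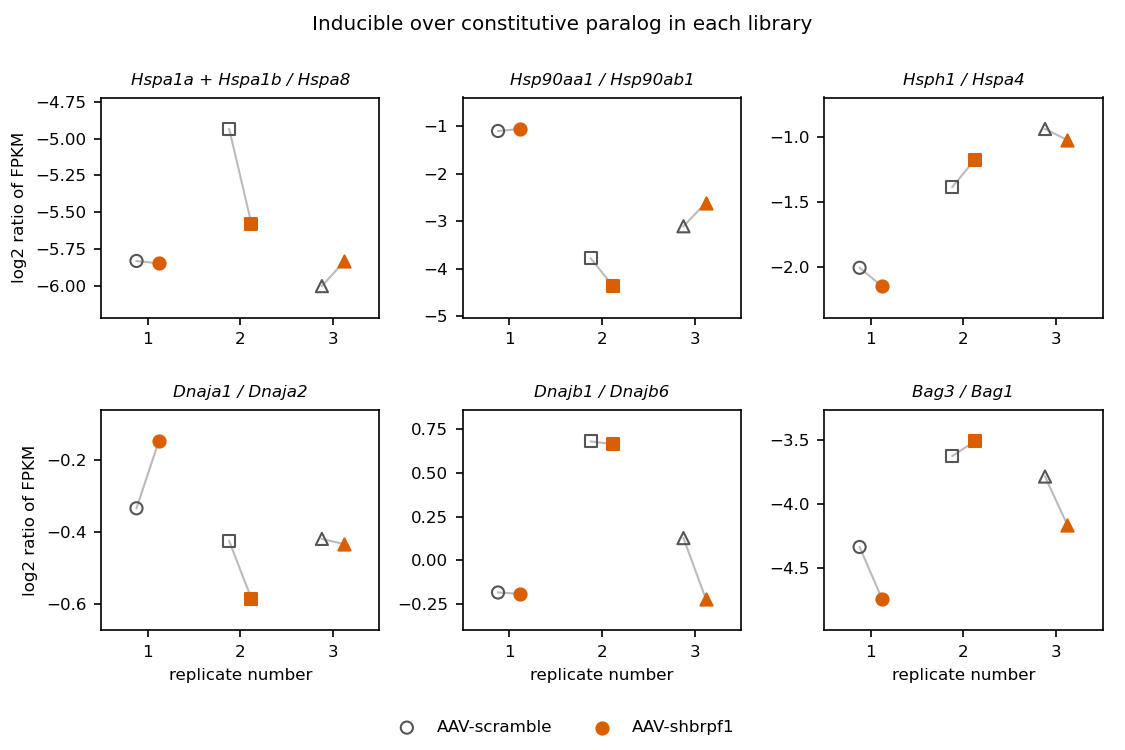
Log2 ratio of the inducible to the constitutive member of 6 paralog pairs in each library, by replicate number and virus. The Hsp90aa1 to Hsp90ab1 ratio goes from -1.11 and -1.06 in libraries numbered 1 to -3.78 and -4.37 in those numbered 2, while the 2 libraries of one number differ by at most 0.58; for Hspa1a and Hspa1b against Hspa8 the libraries numbered 2 differ by 0.64, about the 0.66 that the number means span.

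The small heat shock proteins, which hold unfolded proteins without ATP, were scarce. Hspb1 (Hsp25) was at 0.85, 0.05 and 0.21 FPKM in AAV-scramble and at 0.70, 0 and 0.12 FPKM in AAV-shbrpf1. It was thus highest in libraries numbered 1, but it rested on only 0 to 13 estimated fragments per library. Markers of mural and smooth muscle cells and of fibroblasts were also highest there: the first summed to 32.7, 2.67 and 3.87 FPKM in AAV-scramble and 29.2, 2.68 and 3.13 FPKM in AAV-shbrpf1 (8 genes, Kcnj8 listed at 0 in each library), the second to 45.7, 1.99 and 1.55 FPKM and to 20.99, 2.07 and 1.503 FPKM (6 genes). Their part in the Hspb1 values was not tested. Hspb8, which works with Bag3 in selective autophagy, was at 4.84, 5.47 and 6.51 FPKM and at 5.04, 6.14 and 6.62 FPKM, higher with AAV-shbrpf1 in each pair by 0.07 ± 0.23 (SE) on average, with overlapping groups. Cryab (alpha B-crystallin) was at 1.94 to 3.80 FPKM and Hspb6 at 1.58 to 3.02 FPKM.

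Of the chaperonins, Hspd1 (Hsp60) forms the mitochondrial folding chamber and Hspe1 (Hsp10) its lid. Hspd1 was at 117, 58.8 and 65.4 FPKM in AAV-scramble and at 112, 47.6 and 68.4 FPKM in AAV-shbrpf1. Hspe1 was at 46.8, 27.6 and 37.3 FPKM and at 44.8, 30.0 and 33.2 FPKM. Hspd1 was 1.59 to 2.51 times Hspe1. Both were highest in libraries numbered 1 and lowest in those numbered 2. Of the 28 chaperones that differed between the numbers, 21 were highest in libraries numbered 1 and 23 lowest in those numbered 2. Of all 8876 genes that differed, 49.2% were highest in libraries numbered 1 and 60.3% lowest in those numbered 2. The differences between these shares were not tested. Hspd1 and Hspe1 share the promoter stretch printed above, and its part in the values of these genes was not tested. Their annotated first parts overlap, so reads of one may count for the other if strand was not used.

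The 7 subunits of the cytosolic chaperonin TRiC in the set (Tcp1, Cct2, Cct3, Cct4, Cct5, Cct7 and Cct8) belong to the same complex, which folds actin and tubulin. Their RNA levels were nevertheless unequal. Within a library the highest subunit was 3.02 to 5.35 times the lowest; Cct2 was the highest in 5 of the 6 libraries. Cct2 was at 82.2, 64.2 and 84.2 FPKM in AAV-scramble and at 80.1, 58.5 and 73.2 FPKM in AAV-shbrpf1, lower in each pair by 0.12 ± 0.25 (SE) log2 units on average (adjusted p = 1), with overlapping groups. Cct3 was at 30.1, 23.1 and 26.8 FPKM and at 27.2, 23.2 and 23.6 FPKM, and Cct4 at 32.4, 12.0 and 22.9 FPKM and at 30.0, 12.5 and 22.3 FPKM. Cct3 varied little over the libraries, whereas Cct4 had the smallest p between replicate numbers of all 44 chaperones, as given below with the others. The remaining subunits ranged from 19.5 to 74.4 FPKM.

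J-domain proteins stimulate the ATPase of Hsp70 and choose its clients. Dnaja1 (Hdj2), classed as inducible, was at 40.2, 13.98 and 22.4 FPKM in AAV-scramble and at 39.4, 11.4 and 24.2 FPKM in AAV-shbrpf1, and its paralog Dnaja2 at 50.7, 18.8 and 30.0 FPKM and at 43.7, 17.1 and 32.7 FPKM. Both had the same order of libraries (1, then 3, then 2), and Dnaja2 exceeded Dnaja1 by 1.11 to 1.4995 times (log2 difference of the ratio 0.00, exact permutation p = 1). The 2-unit element lay in the Dnaja1 window printed above, not in the other Dnaja1 windows or in that of Dnaja2. Its part in these values was not tested. Inducible Dnajb1 (Hsp40) was at 17.2, 15.9 and 14.3 FPKM and at 16.2, 13.9 and 12.5 FPKM. It was lower with AAV-shbrpf1 in 3 of 3 pairs by 0.15 ± 0.22 (SE) log2 units on average, which did not pass with or without the block (adjusted p = 1 in both fits). Dnajb6, which suppresses aggregation of polyglutamine proteins, was at 19.6, 9.95 and 13.1 FPKM and at 18.5, 8.80 and 14.6 FPKM. The ratio of Dnajb1 to Dnajb6 was lower with AAV-shbrpf1 in each pair (log2 difference -0.12, exact permutation p = 0.5; exact sign-flip test of the pairs p = 0.25, the smallest that 3 pairs allow).

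The C-class J-domain genes did not share one order of libraries. Dnajc5, which encodes the synaptic vesicle protein CSP alpha, was at 22.1, 31.6 and 27.1 FPKM in AAV-scramble and at 22.5, 31.5 and 28.3 FPKM in AAV-shbrpf1, with libraries numbered 2 the highest. Dnajc6 (auxilin), which uncoats clathrin vesicles with Hsc70, was at 28.0, 14.97 and 18.2 FPKM and at 27.7, 13.9 and 19.9 FPKM, with those libraries the lowest. Dnajc7, which has tetratricopeptide repeats that bind Hsp70 and Hsp90, was at 32.4, 15.6 and 24.4 FPKM and at 34.5, 14.6 and 23.5 FPKM. Dnaja4 was at 4.91, 3.20 and 2.90 FPKM and at 4.67, 3.28 and 3.74 FPKM. For each of these 4 genes the groups overlapped, and for the first 3 the AAV-shbrpf1 library lay close to the AAV-scramble library of its number. Dnajb5 hardly varied (10.8 to 11.9 FPKM), and Dnaja3, Dnajb2 and Dnajb4 ranged from 10.1 to 14.2, 6.63 to 18.1 and 1.63 to 3.56 FPKM.

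Cochaperones completed the set. Bag1, a nucleotide exchange factor that links Hsp70 to the proteasome, was at 46.9, 41.1 and 67.7 FPKM in AAV-scramble and at 46.6, 50.6 and 55.7 FPKM in AAV-shbrpf1. Bag3, its stress-inducible relative in autophagy, was at 2.33, 3.33 and 4.92 FPKM and at 1.75, 4.45 and 3.12 FPKM. Bag1 exceeded Bag3 11.4 to 26.7 times, and the log2 ratio of Bag3 to Bag1 differed by -0.22 between the viruses (exact permutation p = 0.7). Over the 6 paralog pairs tested every Benjamini-Hochberg adjusted p was 1. Bag5 was at 12.5, 7.88 and 11.8 FPKM and at 12.9, 8.82 and 11.9 FPKM, higher with AAV-shbrpf1 in each pair by 0.07 ± 0.27 (SE) log2 units on average. Stip1 (Hop), which passes clients from Hsp70 to Hsp90, was at 64.9 to 80.6 FPKM.

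**Figure D3:**
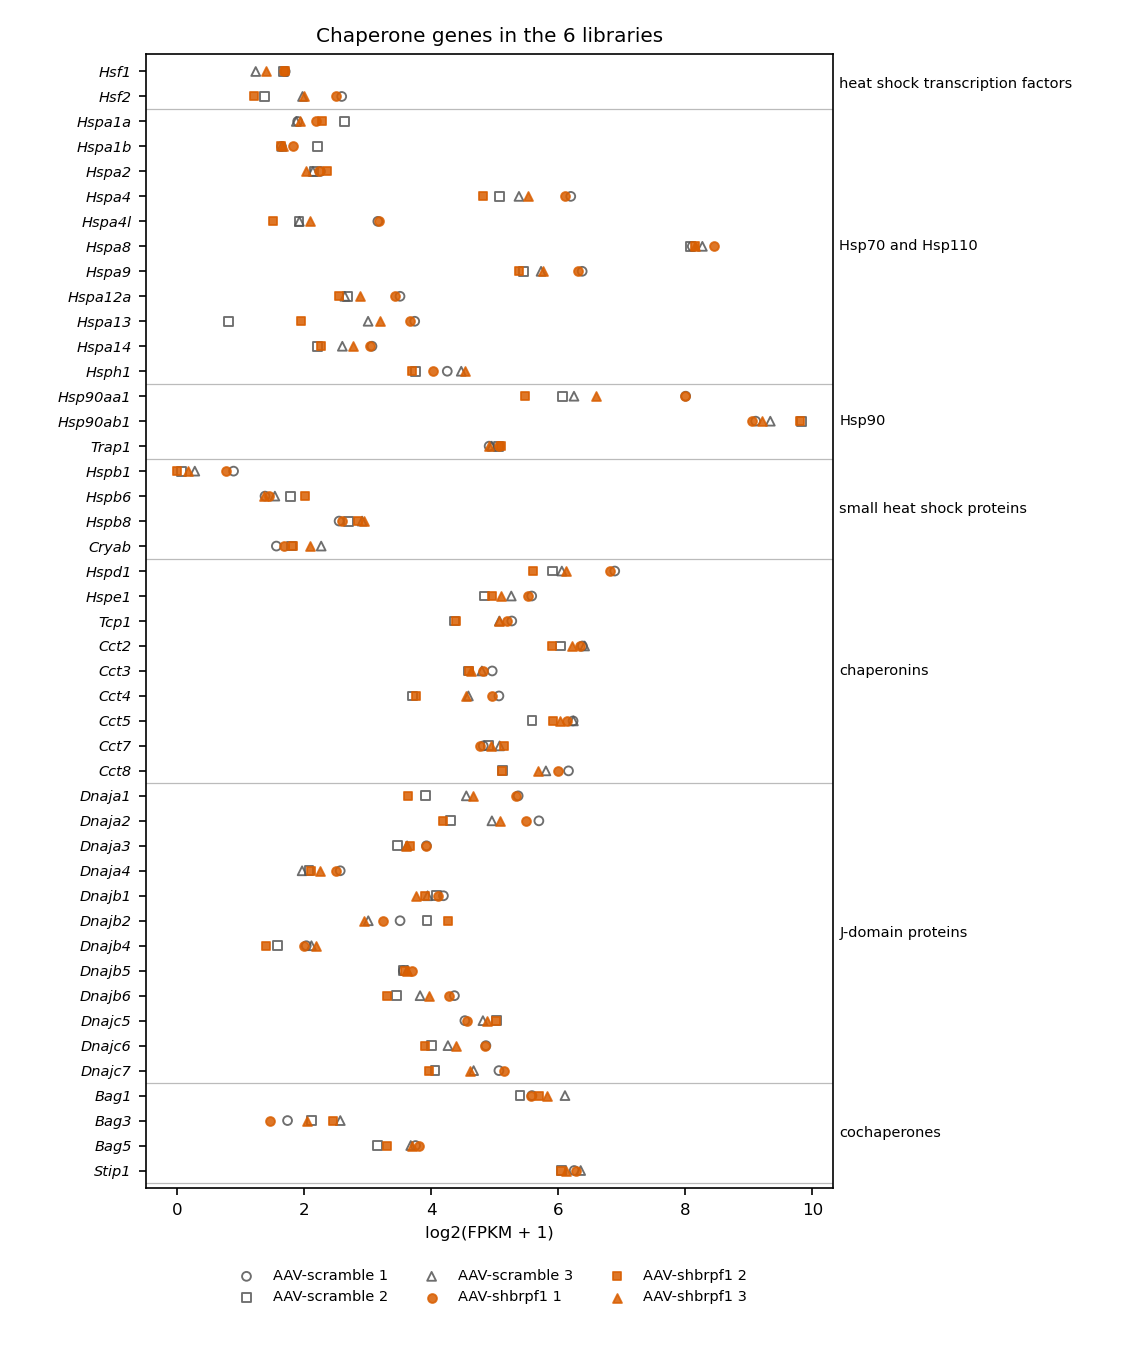
FPKM of the 45 chaperones in each of the 6 libraries, ordered by role, on a log scale. Hsp90ab1, Hspa8 and Hsp90aa1 lie at the top and Hspb1 at the bottom, and for most genes the points of the same replicate number lie together with either virus.

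The chaperones varied with the replicate number of the libraries. In an F test between the 3 numbers with the virus in the model (limma, adjusted p under 0.05), 28 of 44 chaperones differed (63.6%), against 69.4% of all genes, so their share was near the background. As shares of the 44 tested, 21 (47.7%) differed and were highest in libraries numbered 1, against 34.2% of all genes tested. Another 3 (6.82%, against 18.8%) were highest in those numbered 2, namely Hsp90ab1, Dnajb2 and Dnajc5, and 4 (9.09%, against 16.4%) in those numbered 3, namely Hsph1, Cryab, Dnajb4 and Bag3. Libraries numbered 2 were the lowest for 23 (52.3%, against 41.8%). Among genes that differed, those highest in libraries numbered 1 were 21 of 28 chaperones and 4370 of 8876 genes (49.2%); this difference in share was not tested. The smallest p-values were those of Cct4 and Dnaja1 (adjusted p = 0.00227 each), Dnaja2 (0.00238), Dnajc7 (0.00244) and Hsp90aa1 (0.00258), all limma F tests with Benjamini-Hochberg adjustment. Hsp90aa1 was 4.67 times as high in libraries numbered 1 as in those numbered 2, Hspa13 6.70 times, Hspa4l 3.47 times, Hsf2 3.34 times and Dnaja1 3.14 times, whereas Hsp90ab1 was 0.60 times as high. The count of 28 fell to 17 without AAV-scramble library 1 and to 18 without AAV-shbrpf1 library 1. Over all genes the count also fell, from 8876 of 12792 to 4793 of 12701 and to 5331 of 12788. What the numbers stand for is not given in the labels.

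Between the replicate numbers, inducible and constitutive genes were spread over both directions. Of the 10 inducible genes tested 7 differed between the numbers (70.0%, against 69.4% of all genes), 3 of them highest in libraries numbered 1 and 4 in those numbered 3. Of the 13 constitutive genes 10 differed (76.9%), 7 highest in libraries numbered 1 and 3 in those numbered 2. The median difference of libraries numbered 2 minus those numbered 1 was -0.29 for the inducible and -0.82 for the constitutive genes on the log2(FPKM + 1) scale, -0.43 for all 44 and -0.25 for all genes tested. These medians are of the values before the GC correction described below, and the classes were not matched for GC content. They therefore do not separate the class of a gene from its GC content. The inducible genes did not share one order: libraries numbered 1 had the most Hsp90aa1 and Dnaja1 but the least Bag3 and Cryab. Between the viruses, 1 of the 10 inducible genes was higher with AAV-shbrpf1 and 9 were lower (median -0.07). Of the 13 constitutive genes 6 were higher and 7 lower (median -0.01), and of all genes 5183 were higher and 7609 lower. No test was made of these counts.

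The difference between numbers went with the GC content of the transcripts. Over the 44 chaperones the difference of libraries numbered 2 minus those numbered 1 rose with the GC percentage of the longest transcript (Pearson r = 0.76, Spearman rho = 0.77), and over 12785 genes it did so too (r = 0.74, rho = 0.77). These points share the same 4 libraries and are a description. Hsf2 with 36.2% GC and Dnaja1 with 41.2% were among the genes lower in libraries numbered 2, and Dnajb2 with 57.3% among those higher. Genes of nearly equal GC content also went opposite ways: Hsp90ab1 (51.0%) differed by 0.73, Dnajc7 (50.9%) by -1.10 and Dnajb6 (50.9%) by -0.95. For a group of 639 genes with a mean GC content of 51.2% the median difference was 0.02. The virus difference had no such relation among the chaperones (r = -0.04, rho = 0.18). Libraries numbered 2 also had the highest share of fragments from ribosomal RNA loci (5.33% and 8.33%, against 1.498% to 2.64%) and the lowest from mitochondrially encoded genes (1.80% and 1.34%, against 3.71% to 6.09%); their part in the chaperone values was not tested.

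**Figure D4:**
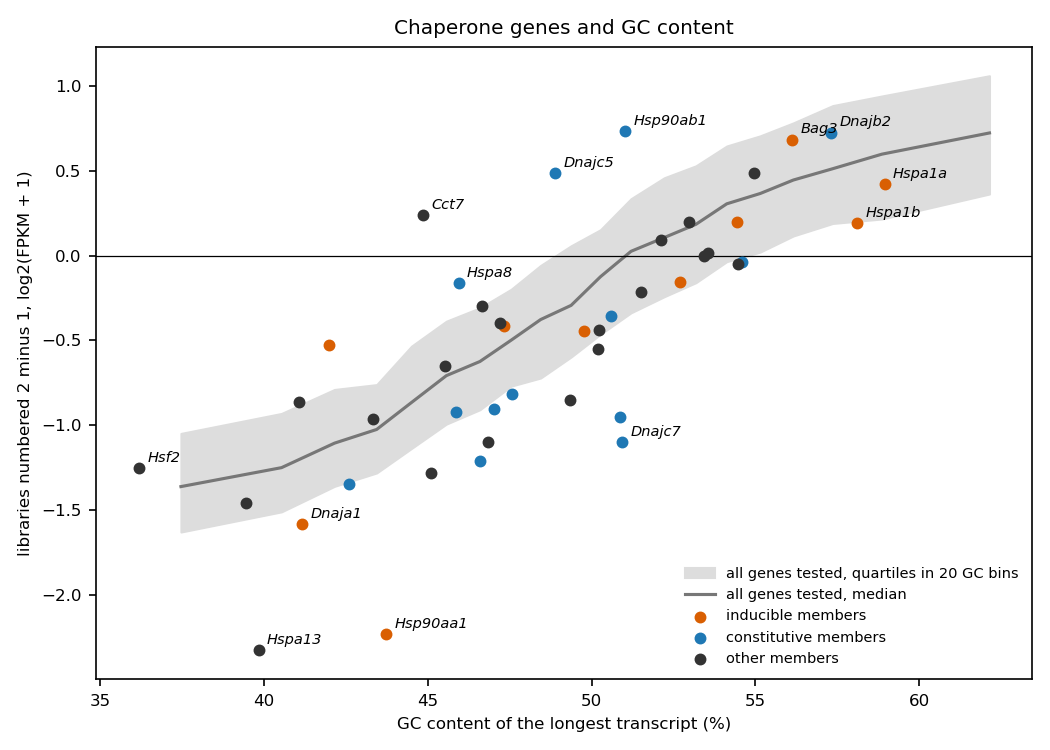
Difference of libraries numbered 2 minus libraries numbered 1 (log2(FPKM + 1) scale) against the GC percentage of the longest transcript, for the 44 tested chaperones over all tested genes. Genes of low GC content, such as Hsf2 at 36.2%, lie below 0 and the chaperones follow the cloud of all genes (r = 0.76 and 0.74).

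After each library was corrected for the median trend with GC content (an alternative chosen after seeing the data), 20 of 44 chaperones still differed between the numbers (45.5%, against 42.7% of all genes). Of these, 17 were among the 28. The median absolute difference of libraries numbered 2 and 1 went from 0.54 to 0.29 log2 units over the chaperones and from 0.62 to 0.32 over all genes, and the sign changed for 14 of the 44. Dnaja1 went from -1.58 to -0.35, Dnaja2 from -1.34 to -0.24, Hsf2 from -1.25 to 0.09 and Cct8 from -0.96 to 0.06. Other genes kept their difference: Dnajc7 was at -1.10 and -1.12, Dnajb6 at -0.95 and -0.97 and Hsp90ab1 at 0.73 and 0.72. Hsp90aa1 went from -2.23 to -1.21 and still differed between the numbers (limma F test, adjusted p = 0.00797). Between libraries numbered 2 and 1 the Hsp90 paralogs thus went opposite ways on both scales. For libraries numbered 2 minus those numbered 3, however, Hsp90aa1 went from -0.65 to 0.03, so number 2 was no longer its lowest. Cct7, the only one of the 7 TRiC subunits above 0 before the correction (0.24), stood at 1.09 after it. Tcp1 (0.37), Cct3 (0.33), Cct2 (0.10) and Cct8 (0.06) were then above 0 too, and Cct4 (-0.58) and Cct5 (-0.29) below.

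**Figure D5:**
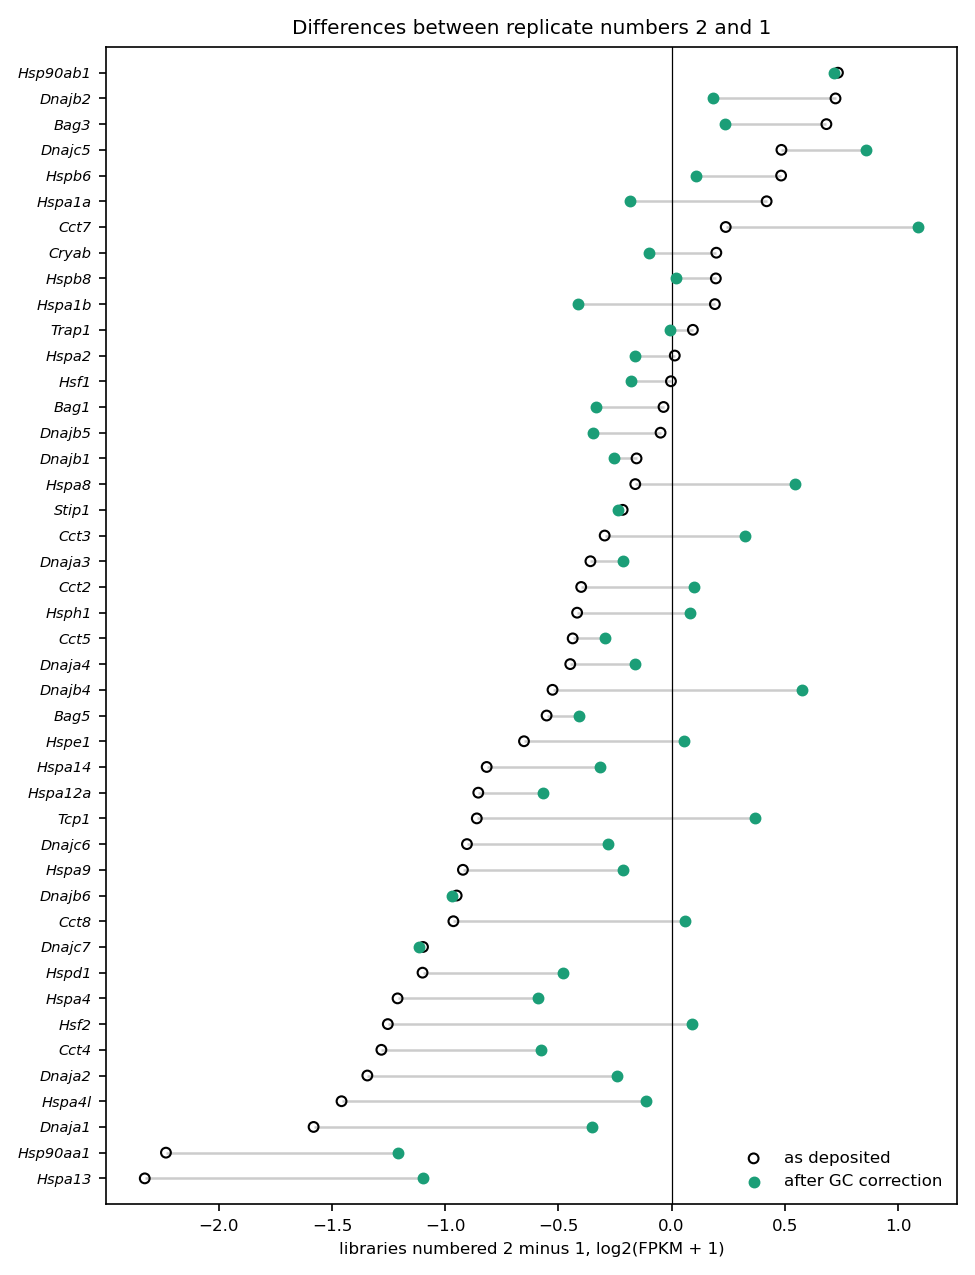
Difference of libraries numbered 2 minus libraries numbered 1 for each of the 44 tested chaperones before and after the correction for GC content, on the log2 scale. Most points move toward 0, whereas Hsp90ab1 (0.73 and 0.72), Dnajc7 (-1.10 and -1.12) and Dnajb6 (-0.95 and -0.97) hardly move and Hsp90aa1 goes from -2.23 to -1.21.

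The wider chaperone system was measured with 67 other genes, of which 60 passed the filter and 0 differed between the viruses (limma, adjusted p under 0.05; 0 also at an unadjusted p under 0.05 with or without the block). Their median difference was -0.03. Of these 60, 43 differed between the numbers (71.7%, near the 69.4% of all genes). By list, each count to be read against that share, 8 of 14 Hsp90 cochaperones, 9 of 10 Hsp70 cochaperones, 4 of 6 prefoldin subunits, 4 of 4 relatives and cofactors of TRiC, 7 of 10 genes of the mitochondrial chaperone and protease system, 11 of 13 other J-domain genes and 0 of 3 other Hsf and small Hsp genes did so. Fkbp4, an immunophilin bound to Hsp90 and the most abundant of its cochaperones here, averaged 61.9 FPKM in AAV-scramble and 61.1 FPKM in AAV-shbrpf1, and Ptges3 (p23) averaged 35.0 and 35.1 FPKM. Cct6a, the TRiC subunit zeta, averaged 43.0 and 41.1 FPKM. Hsbp1, which binds Hsf1, averaged 154 and 139 FPKM.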

How the data were processed

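The authors deposited one table of 55335 genes with a value for each of 6 libraries of total RNA (paired-end Illumina HiSeq, per the labels' protocols). Its header names no unit, and the deposited values are read as FPKM from their form. FastQC, StringTie and DESeq2 are named, with build mm9, in the submitters' processing notes. Aligner, annotation and strandedness were not given in the sources used here. Start and end matched GENCODE M21 (GRCm38) for 54899 of the 55154 identifiers it holds, and coordinates are therefore given in GRCm38. Whole reads were not recovered (40.1% to 44.4% of low values of single-exon genes lay within 0.03 of a whole step), so no count test was used. Depth was estimated from 11673 single-exon genes over 400 nt.

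The main fit used limma 3.58.1 (trend, two-sided) in R 4.3.3 on log2 of the deposited FPKM plus a pseudocount of 1, for the 12792 genes whose mean reached 1 FPKM in either group, with no covariate and no further scaling; this scale understates changes of low genes. Benjamini-Hochberg adjustment ran over all genes tested, at 0.05. An F test compared the replicate numbers with the virus in the model. The numbers were taken to pair the libraries because correlations of deviations were 0.87, 0.83 and 0.57 within a number and at most 0.00 otherwise. Paralog ratios were tested by exact permutation. The limma tests were also run on simulated data built from the means and the spread within a replicate number of these libraries. A 4-fold change was recovered there for 58% of changed genes between the viruses without the block. With the block it was 92.5%, and between the numbers 88%. Values in every library are given for the 6 paralog pairs, the 5 higher and the 5 lower genes of smallest p and the 5 of smallest p between numbers; some others were given by choice after their values were seen. The members, their classes as inducible or constitutive and the lists were chosen with earlier results of these data known. Alternatives were pseudocounts, filters, scalings, the replicate block, left-out libraries and, added after seeing the data, sums without ribosomal RNA loci and mitochondrial genes and a correction for GC content.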

Additional observations from a re-analysis of the deposited data

How the results depend on the processing

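No chaperone was called between the viruses under any setting run; over all genes the count was 0, except 0 to 8 when a library or a pair was left out (8 with the replicate block without libraries numbered 2, 1 without those numbered 3). The block changed no other call. Chaperones differing between numbers were 28, with 17 to 29 when a library was left out and 20 after the GC correction. They were 23 without a filter or at 5 FPKM, 33 at equal sums and 36 after quantile normalization. Over all genes the counts were 8876 of 12792, 4793 to 8885 when a library was left out and 5456 of 12792 after the GC correction. They were 7194 of 31057 without a filter, 5493 of 7213 at 5 FPKM, 8999 of 12792 at equal sums and 8605 of 12792 after quantile normalization. The filters also change how many chaperones were tested, so the equal counts of 23 have unlike bases. Depth limits the low genes most: Cryab, Hspb6 and Hspa13 rested on 31, 45 and 67 estimated fragments in their lowest library.

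Signs of uncalled log2 differences changed as follows. With the GC correction (with or without the replicate block): Hsf2 0.00278, Hspa1a 0.00523, Hspa4l 0.00585, Tcp1 0.0488, Dnaja1 0.00383, Dnajb4 0.0158, Bag1 -0.00497. Hspa1a was 0.00676 and 0.00133 at pseudocounts 0.1 and 0.5, 0.00263 at equal upper quartiles, 0.0130 after quantile normalization and 0.00538 at equal sums without ribosomal RNA loci and mitochondrial genes. Equal sums gave Hspa2 -0.0260, Hspa12a -0.0385, Trap1 -0.00631, Hspb6 -1.8e-05, Cct5 -0.0513, Cct7 -0.0358, Dnajc5 -0.0247, Dnajc6 -0.0487, Bag1 -0.0514. Quantile normalization gave Hsp90ab1 0.119 and Tcp1 0.00365. Dnajb2 was 0.00426 at equal upper quartiles and 0.00555 at equal sums without ribosomal RNA loci and mitochondrial genes.

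Leaving out 1 library or 1 pair moved the differences over these ranges. Hsf1 -0.0936 to 0.156, Hsf2 -0.383 to 0.268, Hspa1a -0.147 to 0.247, Hspa1b -0.286 to 0.0962, Hspa2 -0.0709 to 0.107, Hspa4 -0.382 to 0.264, Hspa4l -0.536 to 0.337. Hspa8 -0.0201 to 0.205, Hspa9 -0.279 to 0.227, Hspa12a -0.231 to 0.290, Hspa13 -0.439 to 1.03, Hspa14 -0.147 to 0.279, Hsph1 -0.295 to 0.122, Hsp90aa1 -0.740 to 0.531. Hsp90ab1 -0.297 to 0.130, Trap1 -0.00327 to 0.102, Hspb6 -0.159 to 0.161, Hspb8 -0.0147 to 0.167, Cryab -0.171 to 0.182, Hspd1 -0.421 to 0.201, Hspe1 -0.230 to 0.141. Tcp1 -0.289 to 0.229, Cct2 -0.246 to 0.00512, Cct4 -0.406 to 0.29999, Cct5 -0.213 to 0.114, Cct7 -0.0951 to 0.113, Cct8 -0.384 to 0.146, Dnaja1 -0.461 to 0.390. Dnaja2 -0.410 to 0.294, Dnaja3 -0.0469 to 0.180, Dnaja4 -0.0356 to 0.264, Dnajb2 -0.398 to 0.266, Dnajb4 -0.211 to 0.186, Dnajb6 -0.251 to 0.244, Dnajc5 -0.102 to 0.161. Dnajc6 -0.232 to 0.246, Dnajc7 -0.307 to 0.287, Bag1 -0.146 to 0.208, Bag3 -0.400 to 0.105, Bag5 -0.118 to 0.219, Stip1 -0.155 to 0.00913. With no change of sign, the ranges were Cct3 -0.198 to -0.0140, Dnajb1 -0.239 to -0.0682, Dnajb5 0.0114 to 0.0818. The paralog ratios ranged as follows: Hspa1a+Hspa1b/Hspa8 -0.371 to 0.163, Hsp90aa1/Hsp90ab1 -0.827 to 0.825, Hsph1/Hspa4 -0.286 to 0.341, Dnaja1/Dnaja2 -0.117 to 0.102, Dnajb1/Dnajb6 -0.412 to 0.113, Bag3/Bag1 -0.535 to 0.0788.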

Other observations

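Of 10 Hsp70 cochaperones outside the set, 6 differed between the numbers in the limma F test (adjusted p under 0.05) and were highest in libraries numbered 2, against 18.8% of all genes, and 3 (St13, Sgtb and Bag4) were highest in those numbered 1; no test was made of the list. Bag6, a holdase for membrane proteins, averaged 26.2, 89.8 and 43.9 FPKM in libraries numbered 1, 2 and 3 (transcript GC 59.9%). Sgta, its partner, averaged 34.7, 70.5 and 43.0 FPKM (59.2%), and Hspbp1, a nucleotide exchange factor of Hsp70, 23.4, 48.2 and 26.0 FPKM (59.9%). St13 (Hip), with 40.3% GC, was at 21.3, 9.52 and 16.2 FPKM. The part of GC content in these values was not tested gene by gene.

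Dnajc17 was the only one of the 60 other chaperone genes whose groups did not overlap: 7.40, 8.55 and 8.27 FPKM in AAV-scramble and 7.29, 6.79 and 6.63 FPKM in AAV-shbrpf1 (limma, adjusted p = 1). It was named after its values were seen, and 1.07% of all genes had groups that did not overlap.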
